A study of Mus musculus with 8 samples.

Results

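Immediate early genes are transcribed within minutes of neuronal activity, growth factors or tissue handling, without new protein synthesis. Of the 48709 genes counted in each library, the 10 with the symbols *Fos*, *Fosb*, *Jun*, *Junb*, *Egr1*, *Egr2*, *Arc*, *Npas4*, *Nr4a1* and *Dusp1* were chosen by name, as activity- and handling-dependent genes. All 10 were present and all 10 passed edgeR's filter on low counts, among 16287 genes tested. RNA of the whole cortex at P1, postnatal day 1, was sequenced from 4 control and 4 dcKO_Nex-Cre mutants on a C57BL6/J background, with 1 library per sample. The study used these mice to ask what the BAF complex, a chromatin remodeler that moves nucleosomes with ATP, does in newborn cortical neurons. The controls were heterozygous animals without Cre (BAF155fl/+, BAF170fl/+). The dcKO_Nex-Cre mutants carried floxed BAF155 (*Smarcc1*) and BAF170 (*Smarcc2*), which Nex-Cre deletes in postmitotic principal neurons. Interneurons, glia and vessel cells keep both genes, and Cre was present in the mutants only, so Cre and the deletion cannot be told apart. The labels give the groups as control and mutant, and the Cre line and the control genotype come from the study's methods. They do not say whether samples came from separate litters, so p-values measure the spread between these samples.

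Neuronal activity opens calcium channels, and calcium-dependent kinases and the ERK pathway then activate CREB and SRF, which act at the promoters of immediate early genes. FOS and JUN proteins pair into AP-1, which binds enhancers of later genes, and AP-1 can bring the BAF complex to such enhancers. EGR proteins, NPAS4 and NR4A1 are further transcription factors of this early wave, ARC regulates AMPA receptors at synapses, and DUSP1 removes phosphate from MAP kinases and so closes the loop.

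None of the 10 immediate early genes changed at an adjusted p under 0.05 in edgeR's quasi-likelihood test with Benjamini-Hochberg adjustment, against 0.884% of all genes tested. The number was also 0 with the Wald test of DESeq2 and with limma-voom, which put 2 and 3 members at an unadjusted p under 0.05. Before adjustment, *Egr2* and *Dusp1* passed a p of 0.05 with higher levels in the mutant, 2 of 10 members against 6.59% of all genes, and 0 of 10 passed it with lower levels, against 7.05% of all genes. These counts turned to 0 higher and 3 lower (*Fosb*, *Junb* and *Nr4a1*) without dcKO_Nex-Cre 2. They were 0 and 0 without control 1, 2 or 3, without dcKO_Nex-Cre 1 and with the replicate number as a block, and 1 and 0 without control 4. Of the 10 log2 fold changes, 5 were above 0 and 5 below, with a median of -0.03 beside 0.0043 for all genes tested. Estimates ran from -0.66 for *Fosb* to 0.70 for *Egr2*. Replicate 2 of the dcKO_Nex-Cre held the highest value of 6 members and replicate 4 the lowest of 6. Levels are given as CPM, a count divided by its library total after TMM scaling, and the lane tag is the number of the sequencing lane in the name of a library's file.

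**Figure D1:**
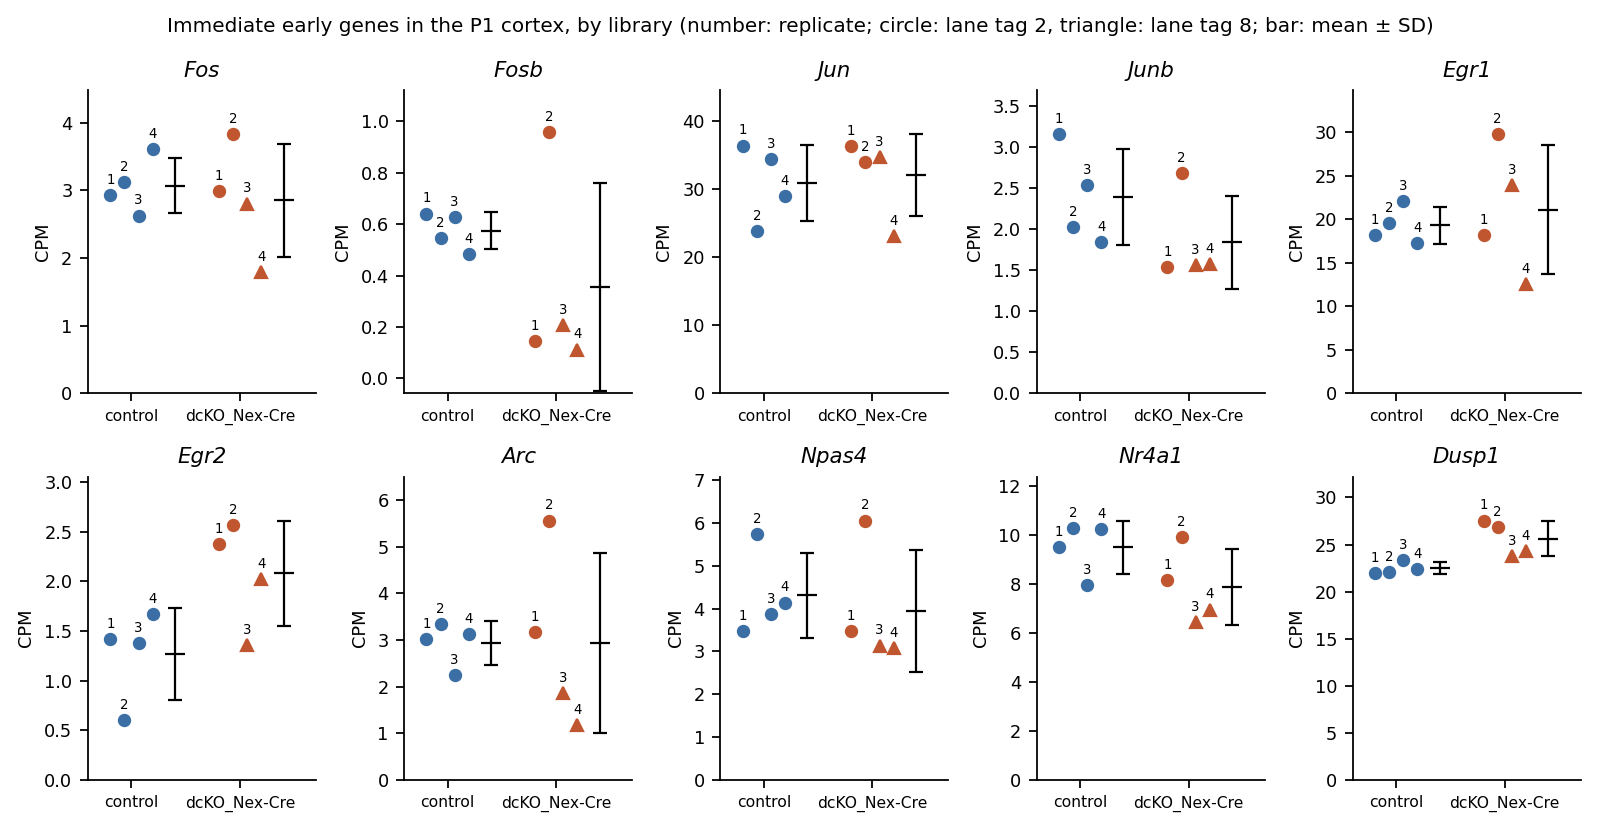
Normalized counts (CPM, linear axis) of the 10 immediate early genes in each library, with control in blue and dcKO_Nex-Cre in orange, the replicate number above each point, circles for lane tag 2 and triangles for lane tag 8, and bars for the mean ± SD of 4 libraries. The groups overlap for 9 of the 10 genes, and for *Dusp1* all 4 dcKO_Nex-Cre libraries, at 23.7 to 27.5 CPM, lie above the controls, at 22.0 to 23.4 CPM.

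The libraries held 17958641 to 35191912 counts, with 23596 to 24221 genes detected and 2.33% to 6.87% of counts from mitochondrial genes. *Smarcc2* fell from 462 ± 25.9 to 263 ± 26.0 CPM (SD, n = 4 each, log2 fold change -0.81, adjusted p = 0.00267 from edgeR). *Smarcc1* fell from 148 ± 11.6 to 102 ± 13.7 CPM (log2 fold change -0.53, adjusted p = 0.0348 from edgeR). In whole tissue, fewer cells of a type and less RNA per cell cannot be told apart. Markers of glutamatergic neurons summed to 1825 to 2098 CPM in the control and 1597 to 1816 CPM in the dcKO_Nex-Cre cortex, with *Neurod6*, the gene that carries Nex-Cre, the 1 of 11 that was called. Without *Neurod6* the other 10 summed to 1240 to 1347 CPM and 1190 to 1405 CPM, and the groups overlapped. Oligodendrocyte lineage markers summed to 173 CPM in control 2, 244 to 252 CPM in the other controls and 252 to 308 CPM in the mutant. All 5 were higher in the mutant (50.9% of all genes), and *Cspg4* was called (adjusted p = 0.0355 from edgeR). Higher were also 8 of 9 endothelial and 5 of 9 microglia markers, with *C1qb* called (adjusted p = 0.0422 from edgeR), but 3 of 8 astrocyte and 2 of 8 interneuron markers. No marker of the glutamatergic, oligodendrocyte, astrocyte, interneuron, microglia or endothelial lists was at 0 in any library. Both dcKO_Nex-Cre replicates 3 and 4 carried lane tag 8 in the names of their files. The other 6 libraries carried lane tag 2, so that lane tag 8 had no control. Fits within lane tag 2 thus compared the 4 controls with dcKO_Nex-Cre 1 and 2 only, without dcKO_Nex-Cre 3 and 4. With the lane tag as a covariate, the group estimate rests on the same 6 libraries, so it repeats that contrast and is no separate check.

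The promoters of the 4 members with the largest change at an unadjusted p under 0.05, filled up in order of p, are shown because CREB and SRF act on these genes through sites near the start. Each line gives the 250 bases before the RefSeq transcription start, 5′ to 3′ on the gene's own strand in GRCm38.p6, with matches to the searched motifs in capitals. *Egr2* lies at chr10:67537619-67537868 (+), *Dusp1* at chr17:26508473-26508722 (-), *Nr4a1* at chr15:101266596-101266845 (+) and *Junb* at chr8:84978749-84978998 (-). The RefSeq start of *Nr4a1* lies 12577 bases inside the GENCODE gene, at an internal start.
Egr2: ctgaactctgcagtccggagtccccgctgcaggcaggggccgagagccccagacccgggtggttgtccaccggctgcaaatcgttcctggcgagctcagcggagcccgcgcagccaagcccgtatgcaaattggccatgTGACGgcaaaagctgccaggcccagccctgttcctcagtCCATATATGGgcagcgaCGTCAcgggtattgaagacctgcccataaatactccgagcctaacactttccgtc
Dusp1: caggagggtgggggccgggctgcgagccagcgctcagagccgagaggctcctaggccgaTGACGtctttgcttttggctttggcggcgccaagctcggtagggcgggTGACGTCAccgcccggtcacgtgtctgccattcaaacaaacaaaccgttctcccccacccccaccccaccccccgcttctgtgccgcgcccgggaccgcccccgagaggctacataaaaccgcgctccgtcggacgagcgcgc
Nr4a1: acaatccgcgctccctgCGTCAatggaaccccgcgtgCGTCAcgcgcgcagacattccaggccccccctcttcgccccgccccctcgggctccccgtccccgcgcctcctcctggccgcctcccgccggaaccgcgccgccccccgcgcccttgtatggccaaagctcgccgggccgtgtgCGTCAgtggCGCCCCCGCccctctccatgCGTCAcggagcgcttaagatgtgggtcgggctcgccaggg
Junb: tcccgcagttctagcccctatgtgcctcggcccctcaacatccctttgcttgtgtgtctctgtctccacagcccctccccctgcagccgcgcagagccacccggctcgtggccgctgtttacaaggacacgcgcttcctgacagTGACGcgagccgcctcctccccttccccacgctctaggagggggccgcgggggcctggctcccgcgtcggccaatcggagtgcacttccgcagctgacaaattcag

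Both strands were searched for the CRE, TGACGTCA, for its core TGACG, which lies within every CRE, for the AP-1 site TGANTCA, the EGR site GCGNGGGCG, TATAAA and the CArG box that SRF binds. *Dusp1* held a complete CRE that began 143 bases before the start, a motif found in 1.55% of 32851 RefSeq promoter windows of the same length. *Egr2* held a CArG box that began 72 bases before the start, against 1.47% of all windows. *Nr4a1* held 4 copies of TGACG and an EGR site 60 bases before the start, and *Junb* held 1 TGACG. The core TGACG was present in 7 of the 8 members that had a window, all but *Jun*, against 17.8% of all windows. G and C made up 58.4% to 74.4% of the bases in these 8 windows. The shares over all windows were not matched for this content. The EGR site was found in *Fosb* and *Nr4a1* (4.7% of all windows), TATAAA in *Fos* (12.4%), and the AP-1 site in 0 of 8 (6.75%). Sequences of *Arc* and *Egr1* were not used here. A match describes letters in these windows and was not tested as a binding site.

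AP-1 subunits came first. *Fos* (ENSMUSG00000021250, chromosome 12 of GRCm38, 85473890 to 85477273), the partner of JUN in the classical AP-1, was at 2.93, 3.12, 2.63 and 3.61 CPM in control 1 to 4. In dcKO_Nex-Cre 1 to 4 it was at 2.99, 3.83, 2.81 and 1.80 CPM. Replicate 2 of the mutant lay above and replicate 4 below all controls, and the groups overlapped. The log2 fold change was -0.09 (standard error 0.22, 95% interval -0.57 to 0.39, adjusted p = 0.879 from edgeR). The estimate was 0.15 within lane tag 2, which leaves out dcKO_Nex-Cre 3 and 4, and 0.07 without dcKO_Nex-Cre 4 alone. *Fosb* (ENSMUSG00000003545, chromosome 7, 19302696 to 19310051) encodes the FOS relative whose truncated form builds up under chronic activity. It was at 0.641, 0.547, 0.626 and 0.485 CPM in the control. In the mutant it was at 0.145, 0.958, 0.206 and 0.112 CPM. Replicates 1, 3 and 4 of the mutant were below every control and replicate 2 was above every control, on 2 to 25 counts per library. The estimate was -0.66 (standard error 0.57, 95% interval -1.92 to 0.59, adjusted p = 0.621 from edgeR). Without dcKO_Nex-Cre 2 it was -1.84 (adjusted p = 0.0880 from edgeR), and within lane tag 2 it was -0.13 (adjusted p = 0.916).

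*Jun* (ENSMUSG00000052684, chromosome 4, 95049034 to 95052222), the AP-1 subunit that also pairs with itself, was at 36.5, 23.9, 34.4 and 29.1 CPM in the control. It was at 36.4, 34.1, 34.8 and 23.1 CPM in the mutant. Control 2 and dcKO_Nex-Cre 4 were the low libraries, 1 in each group. The log2 fold change of 0.05 (standard error 0.16, 95% interval -0.30 to 0.40, adjusted p = 0.905 from edgeR) had an interval that reached 1.32-fold at its upper end. *Jun* shares at most 232 exonic bases, a sum over all pairs of annotated exons, with *Junos* on the opposite strand. *Junos* had 123 counts over all libraries against 6116 for *Jun*. *Junb* (ENSMUSG00000052837, chromosome 8, 84974484 to 84978718), an AP-1 subunit that can dampen JUN, was at 3.16, 2.03, 2.55 and 1.85 CPM in the control. Its mutant values were 1.54, 2.68, 1.57 and 1.57 CPM. Mutant replicates 1, 3 and 4 were below every control, and replicate 2 was within the control range. The estimate was -0.38 (standard error 0.25, 95% interval -0.93 to 0.17, adjusted p = 0.520 from edgeR), and without dcKO_Nex-Cre 2 it was -0.62 (adjusted p = 0.371). It was smaller without control 1, the highest library, at -0.21 (adjusted p = 0.796), and within lane tag 2, at -0.20 (adjusted p = 0.723). *Junb* shares at most 692 exonic bases, by the same sum, with *Prdx2* on the opposite strand, which had 135883 counts against 398 for *Junb*. Since the library kit does not mark the strand, reads of such a pair cannot be told apart.

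EGR1 and EGR2 are zinc finger factors that bind the same GC-rich sites. *Egr1* (ENSMUSG00000038418), a rapid sensor of ERK activity, was at 18.2, 19.6, 22.0 and 17.3 CPM in the control and at 18.1, 29.7, 23.9 and 12.6 CPM in the mutant. Mutant replicates 2 and 3 exceeded every control and replicate 4 was below every control. The log2 fold change was 0.13 (standard error 0.21, 95% interval -0.33 to 0.60, adjusted p = 0.806 from edgeR), and without dcKO_Nex-Cre 2 it was -0.07. *Egr2* (ENSMUSG00000037868, chromosome 10, 67535475 to 67542188), known for hindbrain patterning and myelinating Schwann cells and also induced by activity in the cortex, was at 1.42, 0.602, 1.38 and 1.67 CPM in the control. In the mutant it was at 2.38, 2.57, 1.36 and 2.02 CPM. Mutant replicates 1, 2 and 4 lay above the highest control, and replicate 3 lay within the control range, so the groups overlapped. The mutant mean was 164% of the control mean. The log2 fold change of 0.70 (standard error 0.30, 95% interval 0.05 to 1.36) had an unadjusted p of 0.0378 and an adjusted p of 0.334 in edgeR, and the two-sided exact permutation test gave p = 0.114. Within lane tag 2 the estimate was 0.94 (adjusted p = 0.128 from edgeR). Without control 2, the lowest library, it was 0.50 (adjusted p = 0.463). Without dcKO_Nex-Cre 2 it was 0.59, with an unadjusted p of 0.0985 in edgeR. The oligodendrocyte lineage markers named above were also higher in the mutant, as were most endothelial, meningeal fibroblast and striatal neuron markers. The part of any of these cells in the *Egr2* value was not tested.

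*Npas4* (ENSMUSG00000045903, chromosome 19, 4984355 to 4990316), a bHLH-PAS factor that responds selectively to depolarization, was at 3.48, 5.75, 3.88 and 4.14 CPM in the control and at 3.48, 6.06, 3.14 and 3.09 CPM in the mutant. Replicate 2 was the highest library of each group, and 3 mutant libraries were at or below the lowest control. The log2 fold change was -0.12 (standard error 0.25, 95% interval -0.66 to 0.42, adjusted p = 0.853 from edgeR), and within lane tag 2 it was 0.14. *Nr4a1* (ENSMUSG00000023034, chromosome 15, 101254269 to 101274795), the orphan nuclear receptor NUR77, was at 9.53, 10.3, 7.97 and 10.3 CPM in the control and at 8.17, 9.93, 6.44 and 6.96 CPM in the mutant. The mutant replicates 3 and 4 were below every control. The estimate of -0.27 (standard error 0.16, 95% interval -0.61 to 0.07, adjusted p = 0.468 from edgeR) was -0.07 within lane tag 2 and -0.39 without dcKO_Nex-Cre 2 (adjusted p = 0.371).

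*Arc* (ENSMUSG00000022602, chromosome 15, 74669083 to 74672570), the activity-regulated cytoskeletal gene whose RNA travels to dendrites, was at 3.02, 3.34, 2.25 and 3.13 CPM in the control. It was at 3.16, 5.56, 1.86 and 1.18 CPM in the mutant, from well above to well below the controls. Its means of 2.94 ± 0.474 and 2.94 ± 1.93 CPM (SD, n = 4 each) were alike, and the 95% interval of the log2 fold change, -0.80 to 0.86 around 0.03 (standard error 0.38, adjusted p = 0.980 from edgeR), was wider than that of any member but *Fosb*. The estimate was -0.45 without dcKO_Nex-Cre 2, 0.27 without dcKO_Nex-Cre 4 and 0.57 within lane tag 2 (adjusted p = 0.215). *Dusp1* (ENSMUSG00000024190, chromosome 17, 26505590 to 26562128), the dual specificity phosphatase MKP-1, was at 22.0, 22.1, 23.4 and 22.4 CPM in the control. It was at 27.5, 26.9, 23.7 and 24.3 CPM in the mutant. All 4 mutant libraries were above all 4 controls, and *Dusp1* was the 1 member of 10 whose groups did not overlap, against 8.0% of all genes. The mutant mean of 25.6 ± 1.87 CPM was 114% of the control mean of 22.5 ± 0.625 CPM (SD, n = 4 each). The log2 fold change of 0.19 (standard error 0.08, 95% interval 0.01 to 0.37) had an unadjusted p of 0.0405 and an adjusted p of 0.340 in edgeR. The two-sided exact permutation test gave p = 0.0286, the smallest that 4 against 4 can give. Groups that do not overlap always give this value, so it restates the separation. Mutant replicates 1 and 2, of lane tag 2, were higher than replicates 3 and 4, of lane tag 8, and within lane tag 2 the estimate was 0.28 (adjusted p = 0.110 from edgeR). Without dcKO_Nex-Cre 2 it was 0.17, with an unadjusted p of 0.103 in edgeR. *Dusp1* shares at most 11 exonic bases with *Ergic1* on the opposite strand, which had 36607 counts against 4612 for *Dusp1*.

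**Figure D2:**
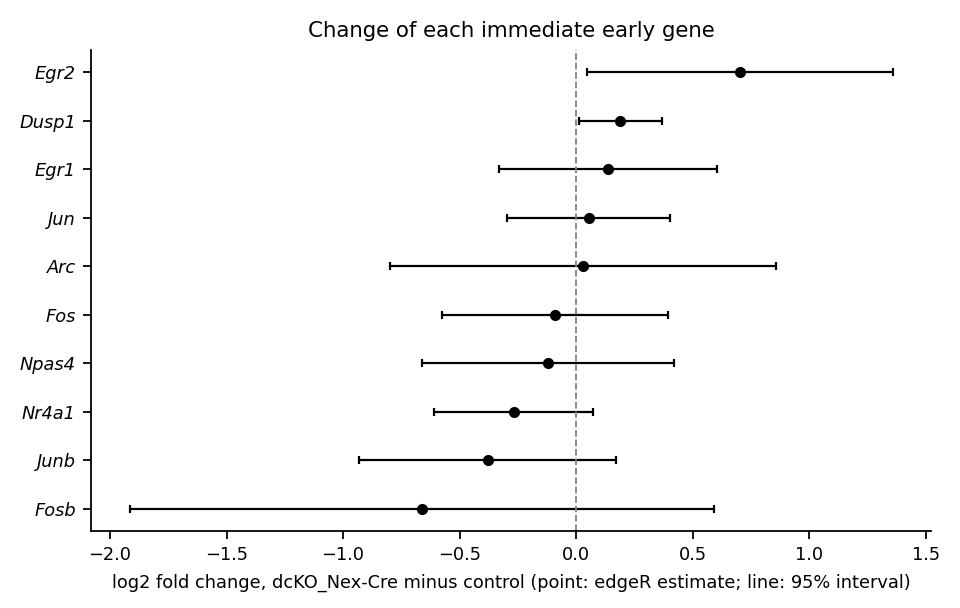
Log2 fold change of each immediate early gene, dcKO_Nex-Cre minus control, as edgeR's estimate (point) with its 95% interval (line), ordered by size. The intervals of *Egr2* (0.05 to 1.36) and *Dusp1* (0.01 to 0.37) lie above 0 before adjustment over all genes, and the other 8 include 0.

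Levels between genes were compared as CPM per kb of exon. In the control, *Jun* was at 9.71 ± 1.77, *Dusp1* at 6.79 ± 0.189, *Egr1* at 4.30 ± 0.463 and *Nr4a1* at 2.71 ± 0.310 CPM per kb (SD, n = 4 each). *Fos* (1.31), *Npas4* (1.04), *Junb* (1.04) and *Arc* (0.960 CPM per kb) followed, and the control ranges of neighbours in this run of 4 overlapped. *Egr2* was at 0.373 ± 0.136 and *Fosb* at 0.0921 ± 0.0117 CPM per kb, each apart from its neighbours in the order. *Jun* stood at the 67.0th percentile of all genes tested and *Fosb* at the 0.706th, so that the members ranged from above the middle of expressed genes to near the filter.

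The extremes fell on a pair of mutant libraries. Replicate 2 of the dcKO_Nex-Cre had the highest value of all 8 libraries for 6 members, where 11.2% of all genes tested were highest. Replicate 4 had the lowest value for 6 members, where 19.6% of all genes were lowest. Summed over the members, the controls were at 91.3 to 101.1 CPM, and mutant replicates 1 to 4 at 103.9, 122.3, 99.8 and 76.7 CPM. The mutant sums thus lay on both sides of the control sums. The coefficient of variation was higher in the mutant for 9 members, all but *Egr2*, and for 65.6% of all genes. It was 12.7% against 114% for *Fosb* and 16.1% against 65.7% for *Arc*. Without dcKO_Nex-Cre 2 the number was 7 of 10 (65.5% of all genes), and without dcKO_Nex-Cre 4 it was 8 of 10 (44.3%). The gene's own biological coefficient of variation was 1.81 times edgeR's trend at that level for *Fosb*, 1.69 times for *Arc* and 1.60 times for *Egr1*, and 0.705 times for *Dusp1*.

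**Figure D3:**
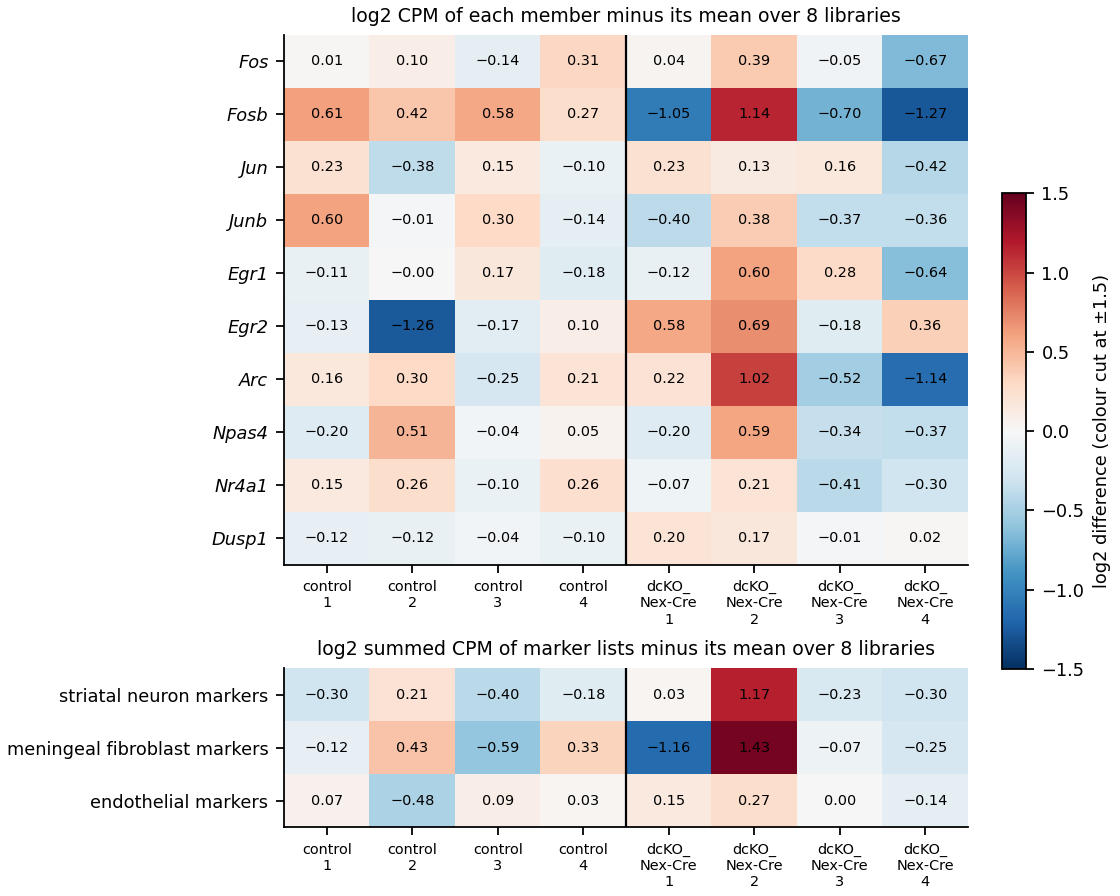
Log2 CPM of each immediate early gene in each library minus its mean over 8 libraries (upper block), and the same for the summed CPM of 3 marker lists (lower block), with red above and blue below the mean and the colour scale ending at ±1.5. The column of dcKO_Nex-Cre 2 is above the mean for all 10 genes and for the striatal, meningeal and endothelial markers, and that of dcKO_Nex-Cre 4 is below it for all but *Egr2* and *Dusp1*.

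The summed markers of striatal neurons, meningeal fibroblasts and endothelium were highest in dcKO_Nex-Cre 2, and other lists peaked in other libraries. The 7 markers of striatal neurons summed to 261 CPM there and to 88.3 to 134.8 CPM in the other libraries, and 6 of 7 were highest there. Among them, the dopamine receptor *Drd2* was at 12.4 CPM against 1.24 to 5.31 CPM elsewhere. The 6 meningeal fibroblast markers summed to 75.7 CPM there against 12.6 to 37.7 CPM, all 6 highest there, and the 9 endothelial markers to 196 CPM against 117 to 180 CPM, 6 of 9 highest there. No gene of these 3 lists was at 0 in any library. Choroid plexus markers summed to 1328 CPM in control 4, 734 CPM in control 1, 552 CPM in dcKO_Nex-Cre 2 and 3.65 to 92.4 CPM in the rest. Hippocampal and thalamic markers were highest in control 2 (284.5 CPM) and erythroid markers in dcKO_Nex-Cre 4 (185.5 CPM). The part of striatal, meningeal or endothelial cells in the high member values of dcKO_Nex-Cre 2 was not tested. In dcKO_Nex-Cre 4, which had the lowest count total, 6.15% of counts were mitochondrial. Control 2, with 6.87%, had the lowest member sum of the controls, 91.3 CPM, and the lowest *Egr2* of all libraries. Among the controls it held the lowest value of 2 members, *Jun* and *Egr2*, and the highest of 3, *Npas4*, *Nr4a1* and *Arc*. The part of RNA quality or depth in the low values of either library was not tested.

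Over the 45 pairs of members, the correlation of group-centred log2 CPM across the 8 libraries had a median r of 0.46, from -0.15 to 0.91, and was above 0 in 41 pairs. Each library enters every pair. The median r was 0.21 without dcKO_Nex-Cre 2, with 29 pairs above 0, and 0.33 without dcKO_Nex-Cre 4, with 36 above 0. Without both, over 6 libraries, it was -0.04, with 22 of 45 pairs above 0. Against the mean of the other 9 members, r was 0.92 for *Arc*, 0.85 for *Fosb* and 0.79 for *Fos*, and 0.44 for *Jun* and 0.30 for *Egr2*, the members least like the rest. Among 14585 other genes with a mean of at least 1 CPM, those most like the members' mean over 8 libraries were *Pik3r3* (r = 0.988), a regulatory subunit of PI3 kinase, *Lamc3* (r = 0.981), a laminin chain, *Gm15743* (r = 0.981), *E430024P14Rik* (r = 0.978) and *Adora2a* (r = 0.978), the adenosine receptor of striatal neurons. Without dcKO_Nex-Cre 2 and 4, r was 0.974 for *Lamc3*, 0.886 for *Pik3r3* and 0.742 for *E430024P14Rik*, the lowest of the 5. *Adora2a* was at 27.9 CPM in dcKO_Nex-Cre 2 and at 4.15 to 12.5 CPM in the others. These correlations describe 8 libraries and carry no test.

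Relatives of the members and the genes around them were read from lists chosen by role. Of 11 family paralogs, 8 were tested and 0 were called by edgeR (0.884% of all genes were called). At an unadjusted p under 0.05, 0 were higher and 2 lower, against 6.59% and 7.05% of all genes. DESeq2's Wald test called 1 and limma-voom called 0. *Fosl2*, the AP-1 subunit FRA2, was at 58.0 ± 5.46 CPM in the control and 37.2 ± 10.7 CPM in the mutant (SD, n = 4 each, log2 fold change -0.63, adjusted p = 0.140 from edgeR). It was the 1 of 8 tested paralogs whose groups did not overlap (8.0% of all genes in either direction). *Nr4a2*, the nuclear receptor NURR1, was at 62.9 ± 8.96 and 43.1 ± 13.4 CPM (log2 fold change -0.54, adjusted p = 0.226 from edgeR). For both, the estimate within lane tag 2 was smaller, at -0.33 (adjusted p = 0.109) and -0.31 (adjusted p = 0.397).

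Among 49 other rapid response genes, 47 were tested, 2 rose and 1 fell (0.884% of all genes were called). At an unadjusted p under 0.05, 8 were higher and 5 lower, against 6.59% and 7.05% of all genes. *Klf10*, a zinc finger repressor induced early by TGF-beta, was at 20.3, 19.4, 18.8 and 20.1 CPM in the control and at 13.9, 12.6, 14.0 and 11.2 CPM in the mutant. It fell by 0.60 on the log2 scale (adjusted p = 0.0196 from edgeR), and every mutant library was below every control. *Trib1*, a pseudokinase that acts as a scaffold for protein degradation, was at 12.2, 12.2, 13.1 and 12.2 CPM in the control. In the mutant it was at 22.6, 19.7, 16.1 and 18.8 CPM (log2 fold change 0.63, adjusted p = 0.0305 from edgeR). *Per1*, a circadian clock gene that CREB induces, was at 32.2, 37.8, 33.7 and 31.1 CPM in the control. Its mutant values were 51.7, 48.9, 43.7 and 46.1 CPM (log2 fold change 0.50, adjusted p = 0.0278 from edgeR). The groups did not overlap for any of the 3 genes. Of the 47 tested, the groups were apart for 6 genes higher and 5 lower in the mutant (8.0% of all genes in either direction). The 3 called genes were also called within lane tag 2, with adjusted p of 0.0362 for *Klf10*, 0.0163 for *Trib1* and 0.0261 for *Per1*. The fit with the lane tag as a covariate repeats that contrast. In it, *Trib1* (adjusted p = 0.0311 from edgeR) and *Per1* (0.0414) were called and *Klf10* was not (0.0918). *Pmaip1*, the p53-induced BH3-only gene NOXA, was at 1.37 ± 0.354 and 3.19 ± 0.847 CPM (log2 fold change 1.23, adjusted p = 0.0504 from edgeR, 0.0362 within lane tag 2). The number called in this list was 0 without control 1, control 3, control 4 or dcKO_Nex-Cre 2, 1 without dcKO_Nex-Cre 1 or 3, and 7 without dcKO_Nex-Cre 4.

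**Figure D4:**
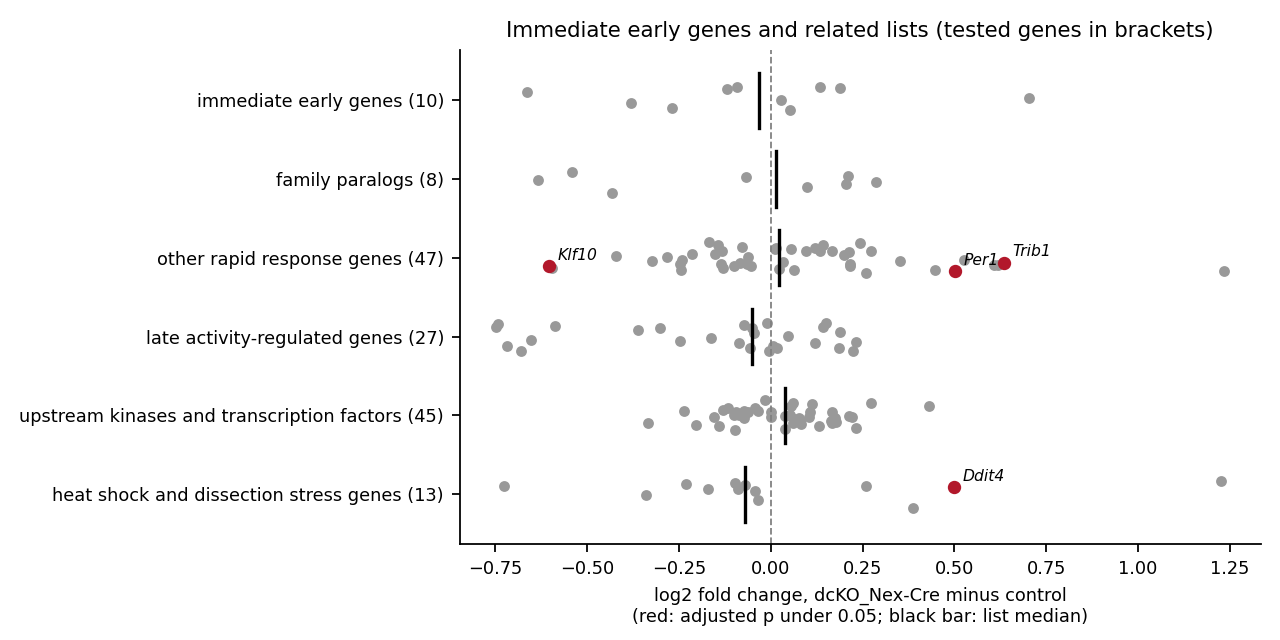
Log2 fold change, dcKO_Nex-Cre minus control, of every tested gene of the immediate early genes and 5 related lists, with the number tested in brackets, list medians as black bars and genes with an adjusted p under 0.05 in red. The medians of the 6 lists lie between -0.07 and 0.04, beside 0.0043 for all genes, and the called genes are *Klf10*, *Trib1*, *Per1* and *Ddit4*.

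Late activity-regulated genes, which the early factors switch on, held 27 tested members, 0 called by edgeR (0.884% of all genes were called). At an unadjusted p under 0.05, 0 were higher and 6 lower, against 6.59% and 7.05% of all genes. DESeq2's Wald test called 2 and limma-voom called 0. The median log2 fold change was -0.05 beside 0.0043 for all genes. *Bdnf*, the neurotrophin, was at 4.58, 3.67, 4.47 and 5.46 CPM in the control and at 2.61, 3.07, 2.93 and 2.19 CPM in the mutant (log2 fold change -0.75, adjusted p = 0.0801 from edgeR). *Nptx1*, a pentraxin that gathers AMPA receptors, was at 23.8 ± 2.65 and 15.8 ± 2.23 CPM (log2 fold change -0.59, adjusted p = 0.0538). *Pcsk1*, a convertase that cuts prohormones, had a log2 fold change of -0.72 (adjusted p = 0.157), and *Vgf*, a secreted neuropeptide precursor, of -0.65 (adjusted p = 0.249). Within lane tag 2, *Bdnf* was at -0.68 (adjusted p = 0.106 from edgeR) and *Nptx1* at -0.53 (0.0669). *Pcsk1* was at -0.71 (0.153) there and *Vgf* at -0.30 (0.317). The groups of *Bdnf*, *Nptx1* and *Pcsk1* did not overlap, as for 5 of the 27 genes, all lower in the mutant (8.0% of all genes in either direction). The glutamatergic marker sum was also lower in every mutant library, but with *Neurod6* left out its groups overlapped, as given above, and the part of neuron number in these values was not tested.

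Upstream of the members, 45 of 46 kinases, cofactors and transcription factors were tested and 0 were called by edgeR (0.884% of all genes were called). At an unadjusted p under 0.05, 6 were higher and 2 lower, against 6.59% and 7.05% of all genes. DESeq2's Wald test called 1 and limma-voom called 0. *Mapk10*, the neuronal kinase JNK3, was at 188 ± 4.77 and 227 ± 16.3 CPM (log2 fold change 0.27, adjusted p = 0.139 from edgeR). *Mkl2*, an actin-regulated coactivator of SRF, had a log2 fold change of 0.43 (adjusted p = 0.202). Within lane tag 2 it was called, at 0.63 (adjusted p = 0.0175 from edgeR), and with the lane tag as a covariate it was not (adjusted p = 0.0733). *Crebbp*, the acetyltransferase CBP, had a log2 fold change of 0.22 (adjusted p = 0.306), and *Camk4*, a kinase of CREB, of -0.33 (adjusted p = 0.310).

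Genes of heat shock and dissection stress, which share rapid induction with the members, held 13 tested of 15, of which 1 rose and 0 fell (0.884% of all genes were called). At an unadjusted p under 0.05, 3 were higher and 3 lower, against 6.59% and 7.05% of all genes. *Ddit4*, a stress-induced inhibitor of mTORC1, rose from 75.0 ± 8.05 to 106.1 ± 5.41 CPM (SD, n = 4 each, log2 fold change 0.50, adjusted p = 0.0278 from edgeR), with an adjusted p of 0.0603 within lane tag 2 and 0.105 with the lane tag as a covariate. It was not called without control 1, 3 or 4 or without dcKO_Nex-Cre 2 or 3. *Txnip*, an inhibitor of thioredoxin, was at 82.7 ± 5.43 and 49.9 ± 16.3 CPM (log2 fold change -0.73, adjusted p = 0.123), and it was the 1 gene of this list called within lane tag 2 (log2 fold change -0.75, adjusted p = 0.0246 from edgeR). *Hspa1b*, an inducible HSP70 that shares reads with its near-identical copy, was at 0.260 ± 0.0681 and 0.622 ± 0.176 CPM (log2 fold change 1.23, adjusted p = 0.138), and *Dnajb1*, an HSP40 cochaperone, had a log2 fold change of -0.17 (adjusted p = 0.286). The summed level of this list, 1511 to 1776 CPM in the control and 1417 to 1570 CPM in the mutant, was highest in control 3 and lowest in dcKO_Nex-Cre 4. In dcKO_Nex-Cre 2, the library with the highest member sum, it was 1570 CPM. Abundant genes carry most of this sum. Of the 15 genes, 3 were highest in dcKO_Nex-Cre 2, *Hspa1b* among them, where 11.2% of all genes tested were highest.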

How the data were processed

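For each of the 8 libraries the authors deposited whole-number counts of reads by Ensembl gene, not normalized (TRIZOL RNA of whole cortex, TruSeq RNA v2 kit, genome build mm10 per the submitters' processing notes). The aligner, counter and annotation are not given in the sources used here. Symbols and positions came from GENCODE M21 (48349 of 48709 identifiers matched), and promoter windows from RefSeq.

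In R 4.3.3, edgeR 4.0.16 was run with filterByExpr (16287 genes), TMM scaling and the robust quasi-likelihood F test of dcKO_Nex-Cre against control, without covariates, adjusted by Benjamini-Hochberg over all genes. CPM are counts scaled to the TMM library size. The CPM of single members were tested by exact permutation of the groups, two-sided, over 70 regroupings. DESeq2 1.42.0, limma-voom (limma 3.58.1), other filters, the lane tag, the replicate number and leaving out each library were alternatives. The fits were tested on simulated data.

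The members and lists were chosen with earlier results of these data known. Named genes are the 10 members, at most 4 genes of each list by smallest p, and the 5 most like the members. Libraries of a group were not copies of each other (chi-square per degree of freedom at least 3.77). Log2 CPM used a prior count of 2. Libraries held 17958641 to 35191912 counts, and figures were drawn with matplotlib 3.10.9.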

Additional observations from a re-analysis of the deposited data

Results flagged for a closer look

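In each group of 4 libraries, the highest and the lowest value of every member were compared with the rest of their group by the ratio of the gap to the whole range at Dixon's 95% critical value. Over the 10 members this made 20 groups, of which chance would pass about 1 if the groups were independent. They are not, since all members were read in the same 8 libraries. The test was passed by 3, all of them at dcKO_Nex-Cre 2. *Fosb* was at 0.958 CPM in that library (gap ratio 0.889), *Junb* at 2.68 CPM (0.969) and *Npas4* at 6.06 CPM (0.868).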

How the results depend on the processing

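The number of members called was 0 in the main comparison and under all 17 alternatives. Members at an unadjusted p under 0.05 numbered 2, but 1 with no filter on low counts, 0 with the replicate number as a block, and 0 to 3 when a library was left out. The 3 were *Fosb*, *Junb* and *Nr4a1*, all lower, without dcKO_Nex-Cre 2. They were again these 3 with dcKO_Nex-Cre replicates 1 and 3 only, an alternative chosen after seeing the data. Of 169 recomputed log2 fold changes of members, 14 changed sign. Within lane tag 2, and with the lane tag as a covariate, *Fos* was at 0.148 and 0.146 and *Npas4* at 0.144 and 0.142. *Arc* was at -0.123 with limma-voom, -0.147 with the block and -0.194 with replicates 1 and 3 only. With a library left out, the estimates ran from -0.256 to 0.0667 for *Fos*, -0.0426 to 0.182 for *Jun*, -0.0724 to 0.313 for *Egr1*, -0.453 to 0.274 for *Arc* and -0.401 to 0.052 for *Npas4*. *Fosb* was not tested with at least 10 counts in every sample, and DESeq2 gave it no adjusted p. The cause of these changes was not tested.

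Of all genes, 144 were called, against 494 with DESeq2's Wald test, 259 with no filter, 54 with the replicate block, 248 within lane tag 2, 52 with the lane tag as a covariate, 538 with replicates 1 and 3 only, and 18 (without control 1) to 1278 (without dcKO_Nex-Cre 4) when a library was left out. DESeq2 called 1 family paralog, 5 other rapid response, 2 late, 1 upstream and 2 stress genes, where edgeR called 0, 3, 0, 0 and 1. No filter gave 5 rapid response genes and 1 late gene, and at least 10 counts in every sample gave 1 late gene. The block gave 0 rapid response and 0 stress genes, lane tag 2 gave 1 upstream gene (*Mkl2*), the lane covariate 2 rapid response genes (*Klf10* was lost) and 0 stress genes, and replicates 1 and 3 only gave 5 rapid response and 2 upstream genes. With a library left out, 0 to 1 family paralogs, 0 to 7 rapid response, 0 to 3 late, 0 to 2 upstream and 0 to 2 stress genes were called.

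The labels do not say whether replicate numbers pair the samples, and the values gave no sign of it. They cannot decide whether same-numbered samples shared a litter. Deviations from the group means correlated between same-numbered samples at r of 0.126, 0.018, 0.135 and -0.138, and in no case was the best match the library's own number. *Fosb*, at 2 to 25 counts, was the member most limited by depth. The marker sum without *Neurod6* and the correlations without dcKO_Nex-Cre 2 and 4 were also chosen after seeing the data.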
